A study of Mus musculus with 12 samples.

Results

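The 10 genes described here, Per1, Per2, Per3, Cry1, Cry2, Clock, Nr1d1, Nr1d2, Dbp and Tef, belong to the circadian clock or are driven directly by it. They were chosen by name, out of 13318 genes that the deposited tables listed with a first or last exon in at least 1 library. Each table gave FPKM, a read density scaled to transcript length and library size, for transcript events. First-exon and last-exon FPKM were summed per gene, and the larger of the sums was taken as its level. Of the 10 genes, 8 were listed in all 6 libraries. Per2 was listed only in FSH and FBS libraries 1 and 2, and Per3 only in untreated libraries 1 and 2.

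RNA came from cumulus cells of Kunming mice, which the labels also call granulosa cells of antral follicles. The 3 FSH and FBS libraries came from cells that had received follicle-stimulating hormone and fetal bovine serum over 18 hours, and the 3 untreated libraries from cells for which no culture time was given. FSH and FBS were given together, so their effects cannot be told apart. The labels give neither the clock time of collection nor the light schedule, so a difference between the groups and a difference in clock time cannot be told apart either. The study also describes complexes from which the oocyte had been removed, and the labels do not say which libraries, if any, came from them.

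In mammalian cells CLOCK pairs with BMAL1, the product of Arntl, and the pair activates genes through E-box elements. Among its targets are the Per and Cry genes, whose products return to the nucleus and inhibit the pair, and Nr1d1 and Nr1d2, which encode the repressors REV-ERB alpha and beta. REV-ERB proteins repress Arntl while ROR proteins, such as that of Rora, activate it. Dbp and Tef encode PAR bZIP factors that carry the rhythm to output genes through D-box elements. In cultured cells serum or cAMP signalling can induce Per1 and reset the clock, and clock genes are known to be expressed in ovarian granulosa cells.

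The sequences before the gene starts are shown for 5 of the genes, because elements through which the clock loops act can lie there. Elements elsewhere were not searched, so a window without a match does not show that a gene lacks them. Of the 10 genes, 9 had windows in the RefSeq promoter table (build GRCm38.p6), 13 windows in all, and the 250 bases before each annotated start were searched on both strands. Capitals mark each match to an E-box (CACGTG), an E-prime box (CACGTT or AACGTG) or a D-box (TTATGNAA), and no matches overlapped.
Per1, chr11:69098699-69098948, plus strand: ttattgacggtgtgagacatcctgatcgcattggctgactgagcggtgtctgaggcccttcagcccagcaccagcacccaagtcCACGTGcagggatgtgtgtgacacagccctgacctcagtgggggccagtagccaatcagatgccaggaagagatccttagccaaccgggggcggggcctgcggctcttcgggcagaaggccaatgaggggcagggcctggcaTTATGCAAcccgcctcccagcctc
Per3, chr4:151044666-151044915, minus strand: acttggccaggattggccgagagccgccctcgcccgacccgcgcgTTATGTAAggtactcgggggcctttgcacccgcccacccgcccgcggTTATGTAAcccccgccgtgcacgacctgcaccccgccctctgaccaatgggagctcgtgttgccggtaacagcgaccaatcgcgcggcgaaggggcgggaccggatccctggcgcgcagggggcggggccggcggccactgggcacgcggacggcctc
Cry1, chr10:85185055-85185304, minus strand: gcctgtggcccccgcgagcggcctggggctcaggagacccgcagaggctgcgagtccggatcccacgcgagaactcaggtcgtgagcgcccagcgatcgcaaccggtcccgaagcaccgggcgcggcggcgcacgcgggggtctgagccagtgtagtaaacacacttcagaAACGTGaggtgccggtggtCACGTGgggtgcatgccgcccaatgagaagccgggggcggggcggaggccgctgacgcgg
Nr1d1, chr11:98775378-98775627, minus strand: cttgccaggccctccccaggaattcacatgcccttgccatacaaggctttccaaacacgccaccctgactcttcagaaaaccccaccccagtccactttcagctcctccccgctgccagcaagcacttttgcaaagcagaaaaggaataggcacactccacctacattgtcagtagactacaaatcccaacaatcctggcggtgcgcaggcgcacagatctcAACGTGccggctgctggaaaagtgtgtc
Tef, chr15:81811164-81811413, plus strand: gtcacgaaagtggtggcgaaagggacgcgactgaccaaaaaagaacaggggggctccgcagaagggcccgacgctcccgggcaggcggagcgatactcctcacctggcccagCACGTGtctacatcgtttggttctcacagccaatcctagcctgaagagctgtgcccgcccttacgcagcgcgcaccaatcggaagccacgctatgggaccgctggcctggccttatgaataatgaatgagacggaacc

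Per1 held an E-box that began 166 bases before the start and a D-box that began 24 bases before it, and Per3 held a pair of D-boxes. An E-box stood before both annotated starts of Tef and before Cry1, which also held an E-prime box, as did Cry2 and Nr1d1. Of all 32851 windows in the table, 6.02% held an E-box, 3.85% an E-prime box and 3.07% a D-box. These shares are not matched for base content. The clock gene windows with a match held 54.8% (Nr1d1) to 72.4% (Per3) G and C bases, against a median of 52.4% over all windows. None of the 13 windows held a RORE (ANTAGGTCA), a full CRE (TGACGTCA) or a CArG box, which occurred in 0.548%, 1.55% and 1.47% of all windows. These matches are letters in a sequence and not measured sites. For the deposited positions the build is not given in the sources used here. Even so, the deposited first exon that all 6 libraries listed for Tef, from 81811414 to 81811720 on chromosome 15, began at the base after the printed Tef window. Per3 and Cry1 lined up in the same way. For Nr1d1 and Nr1d2 the nearest listed first exon began 44 and 75 bases after the annotated start. The other Tef window lay inside a first exon listed from 81802421 to 81802886, and the Dbp window reached into one listed from 45705088.

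**Figure D1:**
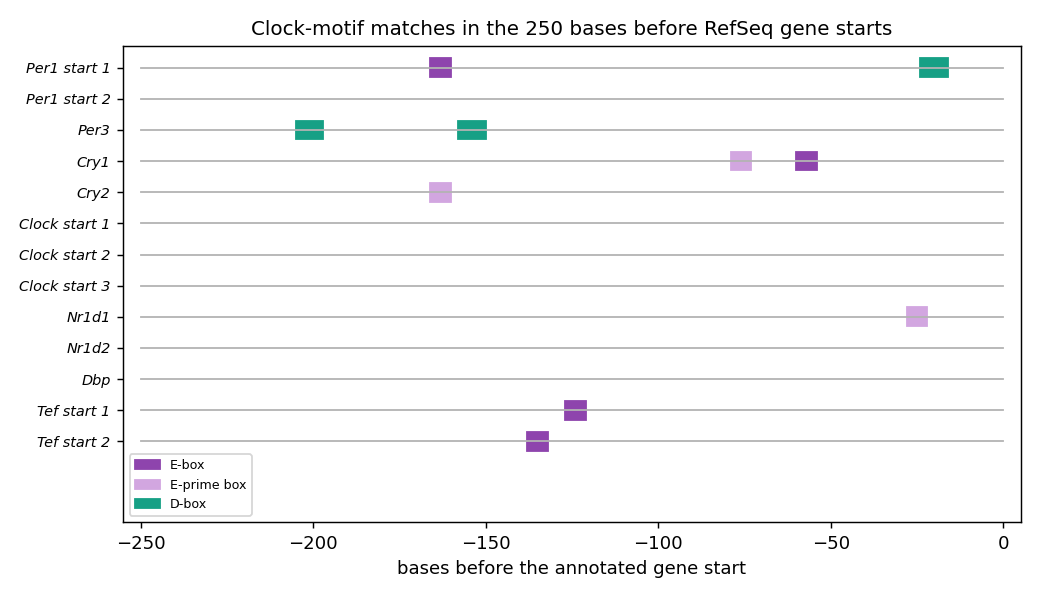
Matches to 3 clock elements in the 250 bases before each of the 13 RefSeq gene starts of 9 clock genes; the x axis gives bases before the start, each grey line is 1 window and each coloured box 1 match. E-boxes stand before Per1, Cry1 and both Tef starts, D-boxes before Per1 and Per3, and 6 windows hold no match.

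None of the 8 clock genes that could be tested passed the threshold between FSH and FBS and untreated cells. Groups did not overlap for 4 of the 8, near the share over all tested genes, 38.9%. Per1 lay above in all 3 FSH and FBS libraries (1.84 times the untreated mean), and Nr1d1, Dbp and Tef lay below in all 3 (0.431, 0.494 and 0.515 times). Cry1, Cry2, Clock and Nr1d2 overlapped. Beyond the 10 genes Bhlhe40, a repressor of the same loops, rose 3.96-fold. Scaling the libraries to equal sums or by median of ratios, or entering unlisted genes as 0, each ended that call. Arntl and Rora lay above in all 3 FSH and FBS libraries without passing in the same fit.

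Groups were compared by a two-sided limma fit of log2(FPKM + 1), and p-values of 9022 genes were adjusted by Benjamini-Hochberg with 0.05 as the threshold. Libraries 1 and 2 of each group were much closer to each other than to library 3 and were averaged as 1 sample, so n is 2 per group. With this test 1.68% of all genes were called higher and 0.687% lower (2.37% in all), against 0 and 0 of the 8 clock genes. Without adjustment 1 of the 8, Nr1d1, passed 0.05 and was lower, as did 1096 higher and 389 lower genes of all those tested. The median log2 fold change was -0.14 over the 8 clock genes and 0.24 over all tested genes. Of all calls 71% were higher. That share was 56.7%, 54.4% and 56.5% after scaling to equal sums, by median of ratios or by quantiles, which moved the median of all genes to -0.0241, 0.00367 and 0.00425, and no clock gene was called under any of the 3. All 3 FSH and FBS libraries lay above all 3 untreated ones for 29.4% of all tested genes, against 1 of the 8 clock genes, and below them for 9.54%, against 3 of the 8 (38.9% and 4 of 8 in either direction). The 6 libraries taken as separate replicates gave 10.8% of all genes higher and 3.88% lower, with Nr1d1 as the 1 clock gene called. Should libraries 1 and 2 be repeats of one sample, that fit understates its p-values.

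**Figure D2:**
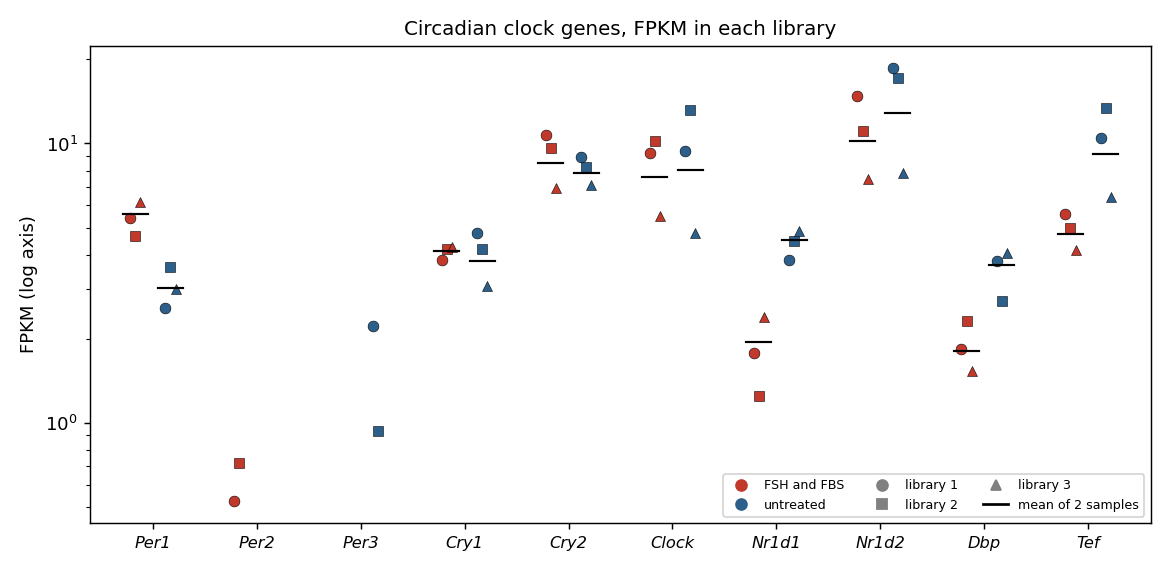
FPKM of the 10 clock genes on a log axis in each library; red marks FSH and FBS and blue untreated libraries, the marker shape gives the library number, and black bars give the mean of 2 samples where all 3 libraries listed the gene. Per1 stands above in FSH and FBS libraries, Nr1d1, Dbp and Tef stand below, and the other 4 genes with bars overlap.

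The libraries differed in ways that touch these values. FSH and FBS library 3 listed 63940 events and untreated library 3 listed 68742, against 76969 to 85853 in the other 4. In those 2 libraries the first-exon sum was under 0.5 of the last-exon sum for 9.65% and 8.74% of genes, against 2.74% to 3.82% in the others. The depth is unknown, since the tables hold no counts. Of 12 granulosa markers 9 to 11 were listed, and Inha stood at 276.1 to 282.1 FPKM after FSH and FBS and 349.7 to 502.5 FPKM in untreated cells, but Foxl2 was listed in no library. Of 9 granulosa markers tested, 5 lay below and 3 above without overlap. The 5 were Wt1, Fshr, Gja1, Amhr2 and Inha, at 0.0235, 0.302, 0.407, 0.573 and 0.651 times the untreated mean. The 3 were Amh, Nr5a2 and Fst, at 4.56, 2.21 and 1.53 times, and Inhba overlapped at 3.97 times. Amh and Nr5a2 passed with the replicate block on averaged samples (limma adjusted p = 0.0023 and 0.030). Of 14 oocyte markers FSH and FBS libraries listed 1, 1 and 5, with sums of 0.26, 0.157 and 17.3 FPKM. Untreated libraries listed 8, 7 and 7, with sums of 19.1, 21 and 24.3 FPKM. Zp3 and Padi6 were listed in all 3 untreated libraries only. H1foo, Oosp1, Dppa3 and Ooep were listed in those 3 and in FSH and FBS library 3. Gdf9 was listed in all 6 and overlapped, and Zp1, Zp2 and Bmp15 were listed nowhere. Leukocyte markers without Cd79a, whose rows lay outside that gene, summed to 3.01 to 7.71 FPKM against 8.97 to 12.6 FPKM. Endothelial markers summed to 2.70 to 3.37 FPKM against 0.0224 to 0.984 FPKM, and erythroid ones to at most 1.92 FPKM. Cdh5, unlisted in untreated cells, made up most of the endothelial sum with FSH and FBS, at 2.06, 2.63 and 2.58 FPKM. Of the others Pecam1 was listed in 1 library of each group, Esam in 2 of each, Vwf in 2 untreated ones and the rest nowhere. In the theca and stroma list, 3 to 4 of 10 markers summed to 26.8 to 37.9 FPKM against 3 to 6 at 65.8 to 84.1 FPKM, and Cyp17a1 was listed only at 0.0321 FPKM in 1 untreated library. Wt1, of the granulosa list, and Acta2, of the theca and stroma list, fell (0.144 against 6.13 and 15.8 against 62.8 FPKM on average; limma adjusted p = 0.029 and 0.030). The Wt1 call ended under equal sums (limma adjusted p = 0.061), median of ratios (0.057), unlisted genes as 0 (0.098) and first-exon sums (0.13). That of Acta2 ended under first-exon sums (0.071). Acta2 made up most of the untreated theca and stroma sum. Dcn went the same way, at 7.855, 7.015 and 2.99 FPKM in the untreated libraries and unlisted in all 3 FSH and FBS ones. Tagln stood at 1.06 times its untreated mean. Star had 9.44, 8.36 and 13.4 FPKM with FSH and FBS. It had 2.36 and 1.56 FPKM in untreated libraries 1 and 2 and was unlisted in untreated library 3. The part of these cells in the clock gene values was not tested, and in bulk RNA fewer cells of a type and less RNA per cell cannot be told apart.

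Clock, the activator, showed no separation between the groups. It had 9.24, 10.2 and 5.49 FPKM in FSH and FBS libraries 1 to 3, against 9.43, 13.1 and 4.77 FPKM in untreated libraries 1 to 3. Library 3 was the lowest in both groups and the FSH and FBS range lay inside the untreated one. The log2 fold change was -0.01 (SE 0.48, 95% interval -1.11 to 1.09, limma adjusted p = 0.99), and without FSH and FBS library 3 it was 0.35. The first exons of Clock carried less signal than its last exon in every library, and the gap was widest in proportion in library 3 of both groups. The first-exon sum in library 3 was 0.084 FPKM against 5.49 FPKM for the last exon in FSH and FBS cells, and 2.40 FPKM against 4.77 FPKM in untreated cells.

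The Per genes encode the clock's inhibitory PERIOD proteins. Per1 had 5.40, 4.64 and 6.19 FPKM with FSH and FBS, against 2.57, 3.61 and 3.01 FPKM in the untreated ones. The lowest FSH and FBS value stood above the highest untreated one. The means were 5.61 ± 0.82 FPKM after FSH and FBS and 3.05 ± 0.058 FPKM in untreated cells (SD, n = 2 each). Libraries 1 and 2 were averaged first, so 0.058 leaves out the spread between untreated libraries 1 and 2, at 2.57 and 3.61 FPKM. Its log2 fold change was 0.70 (SE 0.36, 95% interval -0.14 to 1.54), and it did not pass (limma adjusted p = 0.39; 0.060 to 0.81 over the alternatives). Per1 separated by its last exon but could not be compared by its first exons in every library, since FSH and FBS library 3 listed none. Its last exon stood at 5.14, 4.57 and 6.19 FPKM after FSH and FBS, against 2.56, 3.61 and 3.01 FPKM in untreated libraries.

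First exons of Per1 were spread over 3 positions and varied between libraries of one group. The one next to the printed window, from 69098948 to 69099008 on chromosome 11, held 53.9% and 62.6% of the first-exon sum in FSH and FBS libraries 1 and 2, against 49.1% and 99.2% in untreated libraries 1 and 2. It was not listed in either library 3. The exon from 69095217 held 46.1% and 29.2% in FSH and FBS libraries 1 and 2, against 0.818% and 65.6% in untreated libraries 2 and 3. The third, from 69100152, was listed in 1 FSH and FBS library, with 8.22%, and in 2 untreated ones, with 50.9% and 34.4%. No first exon of Per1 was thus particular to a group in these tables.

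Per2 and Per3 were listed in few libraries. Per2 had 0.523 and 0.719 FPKM in FSH and FBS libraries 1 and 2 and was unlisted in FSH and FBS library 3 and in all 3 untreated libraries. Per3 had 2.21 and 0.937 FPKM in untreated libraries 1 and 2 and no first or last exon in the other libraries. A cassette exon of Per3 was listed all the same in FSH and FBS libraries 1 and 2, with its included form at 0.620 and 0.386 FPKM, against 0.877 FPKM in untreated library 3. Per3 events were thus listed in both groups. Neither gene could be tested, and no fold is given for a gene that a group does not list.

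The CRYPTOCHROME genes, whose products inhibit CLOCK and BMAL1 together with PERIOD proteins, overlapped between the groups. Cry1 had 3.83, 4.202 and 4.25 FPKM with FSH and FBS, against 4.80, 4.19 and 3.09 FPKM in the untreated ones. The highest and the lowest Cry1 value were both untreated, and the log2 fold change was 0.11 (SE 0.37, 95% interval -0.75 to 0.98, limma adjusted p = 0.91). Cry2 had 10.7, 9.59 and 6.94 FPKM against 8.91, 8.23 and 7.11 FPKM. FSH and FBS libraries held both the highest and the lowest Cry2 value, and the log2 fold change was 0.09 (SE 0.37, 95% interval -0.76 to 0.95, limma adjusted p = 0.93). Both signs turned negative under each of the 3 rescalings (-0.13 to -0.04 for Cry1 and -0.17 to -0.07 for Cry2). Cry1 was listed with a single first and a single last exon, at the same FPKM in each library.

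Nr1d1, which encodes REV-ERB alpha, was the clock gene that lay farthest below its untreated level. It had 1.77, 1.25 and 2.38 FPKM with FSH and FBS, against 3.83, 4.47 and 4.88 FPKM in the untreated ones. All untreated values lay above all FSH and FBS values. The means were 1.95 ± 0.62 FPKM after FSH and FBS and 4.51 ± 0.51 FPKM in untreated cells (SD, n = 2 each). The log2 fold change was -0.92 (SE 0.38, 95% interval -1.79 to -0.04). The adjusted value did not pass (limma adjusted p = 0.28, and 0.025 to 0.51 over alternatives with at least 2 samples per group). It passed with the 6 libraries as separate replicates (limma adjusted p = 0.032).

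Part of the Nr1d1 signal lay beyond the annotated gene, and 65.5% of its first-exon and last-exon FPKM over the 6 libraries fell inside it. A last exon beyond the annotated end, from 98765232 to 98766361 on chromosome 11, held 79.2% of the last-exon sum in FSH and FBS library 3, against 26.4% and 44.8% in libraries 1 and 2 of that group and 62.3% in untreated library 1. A longer form of it, from 98765114, held 63.8% in untreated library 2. In untreated library 3 another, at 98753520 to 98753554, held 63.7%. By its single first exon alone Nr1d1 stood at 1.770, 1.247 and 0.496 FPKM with FSH and FBS, against 3.826, 4.470 and 1.771 FPKM in the untreated ones. Those groups did not overlap either, though FSH and FBS library 1 and untreated library 3 were nearly level.

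The 3′ end of Nr1d1 overlaps that of Thra, the thyroid hormone receptor alpha gene on the other strand. Thra stood at 15.8, 15.8 and 13.4 FPKM with FSH and FBS, against 32.0, 34.2 and 34.3 FPKM in the untreated ones (log2 fold change -1.16, limma adjusted p = 0.14; 0.018 with the replicate number as a block). Thra thus also lay below its untreated level in all 3 libraries. All listed Thra last exons reach into Nr1d1, and they held 0.121, 0.106 and 1.23 FPKM, against 1.55, 0.156 and 2.49 FPKM. The Thra levels above are therefore first-exon sums. Whether strand was used in counting is not stated, and without strand reads of the pair cannot be told apart in the overlap.

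Nr1d2, which encodes REV-ERB beta, had the highest mean of the 10 genes in both groups. It had 14.8, 11.1 and 7.44 FPKM with FSH and FBS, against 18.7, 17.2 and 7.87 FPKM in the untreated ones. Untreated library 3 lay below FSH and FBS libraries 1 and 2, so the groups overlapped. The log2 fold change was -0.26 (SE 0.47, 95% interval -1.35 to 0.83, limma adjusted p = 0.83), and without FSH and FBS library 3 it was 0.10. Between libraries 1 and 2 alone both untreated values were above both FSH and FBS values.

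**Figure D3:**
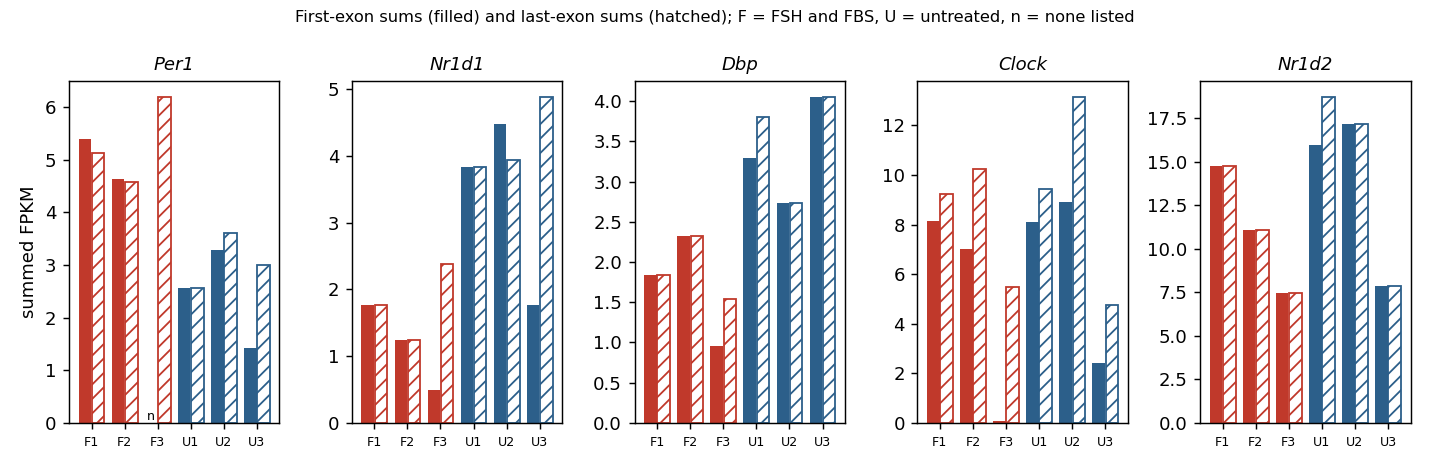
Summed FPKM of first exons (filled bars) and last exons (hatched bars) of Per1, Nr1d1, Dbp, Clock and Nr1d2 in each library, F for FSH and FBS and U for untreated; n marks a library with no first exon listed. In F3 and U3 the first-exon bars of Clock and Nr1d1 are well under the last-exon bars, and Per1 has no first exon in F3.

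Dbp and Tef, the PAR bZIP output genes, both lay below their untreated values in every FSH and FBS library. Dbp had 1.84, 2.32 and 1.54 FPKM, against 3.80, 2.73 and 4.05 FPKM in the untreated libraries. The gap between the groups, from 2.32 to 2.73 FPKM, was smaller than the spread inside the untreated group. Its means were 1.81 ± 0.38 FPKM after FSH and FBS and 3.66 ± 0.55 FPKM in untreated cells (SD, n = 2 each), with a log2 fold change of -0.73 (SE 0.37, 95% interval -1.60 to 0.13, limma adjusted p = 0.38). First exons alone also separated Dbp, at 1.84, 2.32 and 0.955 FPKM against 3.30, 2.73 and 4.05 FPKM.

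Dbp signal was shared between a first exon from 45705088 and one from 45707104 on chromosome 7. The second held 59.9% and 49.1% of the first-exon sum in FSH and FBS libraries 1 and 2 and 100% in library 3, against 58.9%, 47.4% and 42.8% in the untreated libraries. FSH and FBS library 3, the lowest for Dbp, was the 1 library without the upstream exon. The last exon of Dbp overlaps that of Sphk2, a sphingosine kinase gene on the other strand. Sphk2 stood at 9.21, 8.72 and 13.3 FPKM after FSH and FBS, against 9.71, 8.36 and 7.21 FPKM in untreated cells, so its groups overlapped.

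Tef had 5.58, 4.99 and 4.16 FPKM with FSH and FBS, against 10.5, 13.4 and 6.42 FPKM in the untreated ones. Untreated library 3 was the closest to the FSH and FBS values but stayed above all of them. The means were 4.72 ± 0.79 FPKM after FSH and FBS and 9.17 ± 3.89 FPKM in untreated cells (SD, n = 2 each). The log2 fold change was -0.78 (SE 0.41, 95% interval -1.73 to 0.16, limma adjusted p = 0.39). With 6 separate libraries and the replicate number as a block, Tef passed (limma adjusted p = 0.035) beside Nr1d1 (limma adjusted p = 0.025), where 16.8% of all genes were higher and 6.47% lower. With the block on averaged samples neither passed (limma adjusted p = 0.071 for Tef and 0.051 for Nr1d1), and the fit of separate libraries counts near repeats as replicates. No last exon of Tef was listed in any library, so its value rests on first exons. The exon next to the printed window held 93.9% to 99.8% of the sum after FSH and FBS and 95.7% to 98.7% in untreated cells, so both groups used the same Tef start.

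Forms that kept an intron were listed for a few of these genes in single libraries. For Tef the retained form was 22.4% of the retained and spliced forms in FSH and FBS library 2 and 39.5% in untreated library 1, and was unlisted in the other 4. For Nr1d2 it was 12.8% in FSH and FBS library 1 and 14.7% in untreated library 1. Per1 had 1 such form, at 8.42% in FSH and FBS library 1. The retained forms of Tef and Nr1d2 were each listed in 1 library of each group.

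Levels per length placed Nr1d2 first in both groups. After FSH and FBS the order by mean FPKM was Nr1d2, Cry2, Clock, Per1, Tef, Cry1, Nr1d1 and Dbp. In untreated cells it was Nr1d2, Tef, Clock, Cry2, Nr1d1, Cry1, Dbp and Per1. Neighbours in these orders were closer than the larger of their SDs, except Per1 and Tef and Cry1 and Nr1d1 after FSH and FBS, and Cry2 and Nr1d1 and Dbp and Per1 in untreated cells. Per1 was thus the lowest of the 8 genes in untreated cells and the fourth highest after FSH and FBS. The clock genes were modest in level: averaged over both groups, Nr1d2 alone lay above 10.6 FPKM, the median of all tested genes.

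**Figure D4:**
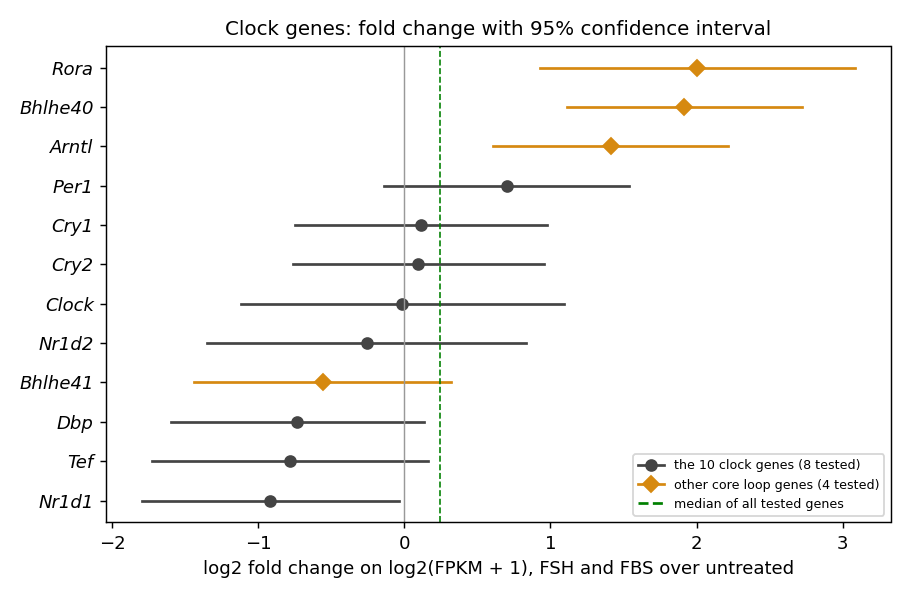
Log2 fold change (points) with its 95% confidence interval (bars) from limma on log2(FPKM + 1), FSH and FBS over untreated, n = 2 samples per group, for the 8 clock genes tested (grey) and 4 further genes of the core loops (orange); the dashed line is the median of all tested genes, 0.24. Rora, Bhlhe40 and Arntl lie farthest to the right, Nr1d1, Tef and Dbp farthest to the left.

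The partners of these genes in the core loops included the 1 call. Of 11 further core loop genes, 4 could be tested, 1 was called higher and none lower, and their median log2 fold change was 1.66. Bhlhe40, which encodes the E-box repressor DEC1, had 51.0, 53.0 and 64.2 FPKM with FSH and FBS, against 17.3, 15.2 and 13.1 FPKM in the untreated ones. The groups were far apart, and Bhlhe40 rose (log2 fold change 1.92, SE 0.35, limma adjusted p = 0.032). Scaling to equal sums (limma adjusted p = 0.079) or by median of ratios (0.073) and entering unlisted genes as 0 (0.051) each ended the Bhlhe40 call. Without untreated library 3, which leaves 1 untreated sample, the log2 fold change of Bhlhe40 was 1.77. Bhlhe41, which encodes the related DEC2, had 1.10, 0.753 and 0.516 FPKM against 1.55, 1.16 and 1.68 FPKM (log2 fold change -0.56, limma adjusted p = 0.52).

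Arntl, the partner of Clock, had 14.9, 10.6 and 12.8 FPKM with FSH and FBS, against 4.31, 4.203 and 4.09 FPKM in the untreated ones. Its means differed 3.06-fold, with a log2 fold change of 1.41 (SE 0.35, 95% interval 0.61 to 2.22, limma adjusted p = 0.089). Rora, an activator of Arntl, had 9.12, 8.32 and 8.41 FPKM against 2.64, 2.56 and 0.576 FPKM (log2 fold change 2.01, SE 0.47, 95% interval 0.93 to 3.08, limma adjusted p = 0.075). Neither gene overlapped between the groups. Both passed when the replicate number was a block in the fit of 2 samples per group (limma adjusted p = 0.0027 for Arntl and 0.00082 for Rora). That fit called 11.5% of all genes higher and 4.51% lower, and none of the 10 clock genes. With 2 samples per group and a block, few residual degrees of freedom are left, so its p-values rest largely on variance pooled over genes. For Rora the log2 fold change was 1.11 by first-exon sums (limma adjusted p = 0.56). Without untreated library 3, which leaves 1 untreated sample, it was 1.41 for Rora and 1.39 for Arntl.

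Other loop genes were listed in part of the libraries only and are named after their values were seen. Ciart, which encodes a further inhibitor of CLOCK and BMAL1, had 2.20, 2.57 and 0.190 FPKM with FSH and FBS and was unlisted in all untreated ones. Arntl2, a relative of Arntl, had 0.633 and 0.509 FPKM in FSH and FBS libraries 1 and 2, and Npas2, a relative of Clock, 0.406 FPKM in library 1, both unlisted in untreated cells. Rorb, Nfil3 and Hlf were listed in no library.

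**Figure D5:**
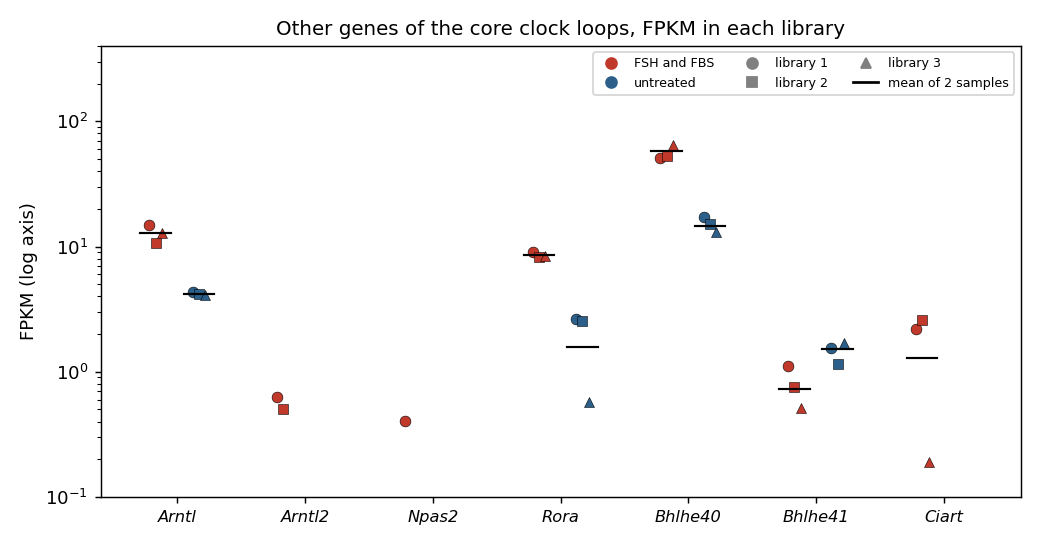
FPKM on a log axis of the 7 further core loop genes that any FSH and FBS library listed; colours, marker shapes and bars are as in the plot of the 10 clock genes. Arntl, Rora and Bhlhe40 stand above in all FSH and FBS libraries and Bhlhe41 below, while Ciart, Arntl2 and Npas2 have FSH and FBS points only.

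Genes that set the stability of clock proteins showed no call among 9 tested of 11, with a median log2 fold change of -0.10. Casein kinase genes stood at 80.1, 94.1 and 70.1 FPKM against 79.0, 100.7 and 56.2 FPKM for Csnk1a1, and at 33.7, 26.9 and 26.0 FPKM against 22.1, 28.8 and 25.3 FPKM for Csnk1d. Both overlapped. The ubiquitin ligase gene Fbxw11 and the deubiquitinase gene Usp7 had log2 fold changes of 0.19 and -0.44 (limma adjusted p = 0.88 and 0.65). Btrc, another ligase gene, was the 1 member of this list whose groups did not overlap, at 4.43, 3.67 and 6.18 FPKM against 3.47, 3.15 and 3.63 FPKM (log2 fold change 0.43, limma adjusted p = 0.62). It is named after its values were seen.

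Partners and outputs of the clock gave no call among 8 tested of 10, with a median log2 fold change of -0.07. Nono, whose product binds PERIOD complexes, and Wdr5 had log2 fold changes of -0.16 and 0.24 (limma adjusted p = 0.89 and 0.77). Those of Nampt, an enzyme of NAD synthesis, and Crtc2, a CREB coactivator, were 0.05 and -0.50 (limma adjusted p = 0.97 and 0.58). In all 8 of these genes the groups overlapped. Of 10 immediate early and CREB or serum response genes 6 were tested and none was called, with a median log2 fold change of 0.03. Egr1 stood at 24.5, 24.4 and 35.4 FPKM against 48.5, 47.0 and 28.4 FPKM, and Fos at 17.6, 14.9 and 9.04 FPKM against 25.3, 22.2 and 17.7 FPKM. The Fos groups did not overlap and FSH and FBS values were below (log2 fold change -0.71, limma adjusted p = 0.43; 0.041 with 6 separate libraries and the block, 0.11 with the block on averaged samples). Without FSH and FBS library 3 the log2 fold change of Fos was -0.32. Srf, which encodes the serum response factor, lay above without overlap at 16.9, 15.1 and 18.6 FPKM against 13.3, 13.5 and 10.8 FPKM (log2 fold change 0.49, limma adjusted p = 0.54). Dusp1, a MAP kinase phosphatase gene named after its values were seen, also lay above, at 14.2, 13.4 and 14.5 FPKM against 4.71, 3.61 and 2.44 FPKM. It had the largest log2 fold change of the 6, 1.84 (limma adjusted p = 0.052). Dusp1 passed with the block on averaged samples (limma adjusted p = 0.00055) and with 6 libraries (0.0043). Without untreated library 3, which leaves 1 untreated sample, its log2 fold change was 1.55. Nr4a1 overlapped, with a log2 fold change of -1.06 (limma adjusted p = 0.23; 0.031 with the block on averaged samples).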

How the data were processed

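RNA of 6 libraries was analysed, 3 per group; small-RNA libraries were not analysed here. The authors deposited 1 table per library with an FPKM value for each transcript event, per the file headers. The submitters' processing notes name HISAT2 2.0.1. Assembler, filters, genome build and use of strand are not given in the sources used here. Depth is unknown, so no counting intervals are given.

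Repeated rows were removed, events were summed per Ensembl gene on the strand with most signal, and 13281 of 13318 gene IDs matched the supplied table of symbols. An unlisted gene was treated as missing. Over 9022 genes the median absolute log2 ratio of libraries 1 and 2 was 0.122 with FSH and FBS and 0.145 untreated, against 0.456 to 0.552 for pairs with library 3, so libraries 1 and 2 were averaged as 1 sample on the FPKM scale. No label ties the libraries to separate cultures or animals, and the spread behind each p-value may therefore be technical.

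limma (version 3.58.1, R 4.3.3, trend on mean level) was fitted to log2(FPKM + 1). It covered the 9022 genes that every library listed and that averaged 1 FPKM or more. Fold changes on this scale understate those of low genes; ratios given as times or fold are of mean FPKM. Deviations from the group means correlated between same-numbered libraries (r = 0.262, 0.266 and 0.435 over genes for libraries 1, 2 and 3). The labels do not say what the numbers share, and with libraries 1 and 2 near repeats these are not 3 separate pairs. The lead fit therefore has no block, and the blocked values stand beside the results they change. On averaged samples the block leaves 1 residual degree of freedom, so those p-values rest largely on variance pooled over genes.

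The clock genes and the further lists were chosen with earlier results of these data known. All 10 clock genes are named. Of the further lists apart from cell type markers, called genes and up to 4 with the highest mean FPKM are named, and exceptions are marked. Cell type markers followed no such rule and were named with their values known. Of the core loop list 1 gene is not reported here. Alternatives changed the averaging, block, pseudocount, filter, scaling, exon type or the libraries used.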

Additional observations from a re-analysis of the deposited data

How the results depend on the processing

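With 0 clock genes called higher and 0 lower, the lead counts over all genes were 152 higher and 62 lower. Taking all 6 libraries as separate replicates gave 973 and 350, and called 1 clock gene lower. The replicate block gave 1040 and 407 on the averaged samples, where it changed no call of a clock gene, and 1516 and 584 on 6 libraries with 2 clock genes called lower. Scaling to equal sums gave 59 higher and 45 lower, median of ratios 49 and 41, and first-exon sums 42 and 21. Leaving out 1 library gave 60 to 272 higher and 41 to 112 lower, the low ends without untreated library 3 and the high ends without FSH and FBS library 3, and called 0 clock genes.

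Clock genes that did not overlap between groups were 1 above and 3 below, beside 29.4% and 9.54% of all genes tested. They were 0 and 1 with a mean of at least 5 FPKM, where fewer genes are tested, and 0 above with first-exon sums, where Per1 is unlisted in 1 library. Leaving out 1 library gave 1 to 2 above and 3 to 4 below. Without library 3 of both groups, an alternative chosen after seeing the data, they were 2 above and 4 below, as were 47.2% and 27.5% of all genes tested.

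Nr1d1, Dbp, Tef and Per1 kept their direction under every alternative that tested them, with log2 fold changes of -1.20 to -0.82, -0.98 to -0.59, -1.18 to -0.64 and 0.45 to 0.85. Their groups do not overlap, so averaging, block, pseudocount, filter or leaving out a library could not turn the sign. Only the rescalings and the exon type could have. Cry1 turned to -0.128, -0.10 and -0.0413 and Cry2 to -0.172, -0.15 and -0.0737 under equal sums, median of ratios and quantile normalization. Leaving out 1 library gave -0.0988 to 0.156 for Cry1 and -0.0252 to 0.338 for Cry2, negative without untreated library 3. It gave -0.557 to 0.35 for Clock, positive without FSH and FBS library 1 or 3 or untreated library 2, and -0.805 to 0.103 for Nr1d2, positive without FSH and FBS library 3. The cause was not tested.

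Among the other named genes, none of these reversals touched a call. Under equal sums, median of ratios and quantile normalization the log2 fold change was -0.17, -0.136 and -0.258 for Csnk1a1, -0.153, -0.122 and -0.172 for Csnk1d, -0.10, -0.0718 and -0.0907 for Fbxw11, -0.0531, -0.0214 and -0.0542 for Wdr5, -0.236, -0.208 and -0.20 for Nampt and -0.21, -0.175 and -0.143 for Tagln. First-exon sums gave -0.238 for Csnk1a1, 1.09 for Usp7 and -0.0196 for Tagln, and 6 separate libraries gave -0.107 for Tagln with and without the replicate block. Leaving out 1 library gave -0.199 to 0.29 for Csnk1a1, -0.30 to 0.612 for Fbxw11, -0.573 to 0.0592 for Usp7, -0.441 to 0.0536 for Nono, -0.152 to 0.172 for Nampt and -0.224 to 0.14 for Tagln. With 2 samples per group and unknown depth, a gene that does not pass is not shown to be unchanged.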
